A study of Rattus norvegicus with 12 samples.

Results

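The cytosolic ribosomal protein genes encode the proteins of the large and the small subunit of the ribosome that translates nuclear messenger RNA. They were taken as every gene of the rat arrays with a non-control probe whose accession maps to a rat symbol of the form Rpl or Rps and a number (with an optional a, x or l and a further digit), or to Rplp0, Rplp1, Rplp2 or Rpsa. This gave 139 probes for 79 genes, 49 of the large subunit and 30 of the small, among 30367 probes and 26903 genes in all. This rule used names and no measured value, but the members were chosen with earlier results of these data known.

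Total RNA came from dorsal root ganglia at level L6, which hold the cell bodies of sensory neurons with their glia, of male rats of the inbred Fischer 344 strain. Each of 3 groups had 4 rats and 4 arrays of a single colour. The group young_AL was 6 months old and ate normal food ad libitum, old_AL was 25 to 28 months old on the same feeding, and old_CR was 25 to 28 months old after being fed on 3 days of the week since 6 weeks of age, which cut calories by about 40% against old_AL. All rats were male and of a single strain, and the tissue was the whole ganglion, so a value is an average over its cell types. Of 15 sensory neuron markers listed, 13 were on the array, and those 13 were well above background on all 12 arrays. In such bulk tissue, fewer cells of a type and less RNA per cell cannot be told apart.

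Ribosomal proteins are made in near equal amounts and assembled with ribosomal RNA in the nucleolus. Their messenger RNAs are among the most abundant in a cell and typically begin with a C followed by an unbroken run of pyrimidines, the 5′ terminal oligopyrimidine tract. Through this tract mTORC1, a kinase that responds to nutrients and growth factors, sets how fast they are translated. In sensory neurons, ribosomes serve a large cell body and a long axon.

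Start regions are shown for members whose values are described below, since a shared start sequence is the best known feature of the family. Each is the 50 bases before the RefSeq start and the 25 bases from it, 5′ to 3′ on the gene's own strand, from RefSeq's rat assembly GRCr8. Capitals mark a C at the first transcribed base with the unbroken run of pyrimidines after it, where at least 4 follow. A sequence with no capitals has no such run at the RefSeq start.
Rpl37a, chr9:81748041-81748115, plus strand: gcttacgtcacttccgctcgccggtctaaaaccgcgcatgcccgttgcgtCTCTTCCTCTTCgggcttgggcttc
Rpl10, chrX:157205800-157205874, plus strand: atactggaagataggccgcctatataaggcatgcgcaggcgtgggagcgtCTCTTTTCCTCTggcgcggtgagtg
Rps18, chr20:4933695-4933769, plus strand: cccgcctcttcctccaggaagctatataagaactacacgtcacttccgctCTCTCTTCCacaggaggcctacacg
Rplp1, chr8:71290848-71290922, minus strand: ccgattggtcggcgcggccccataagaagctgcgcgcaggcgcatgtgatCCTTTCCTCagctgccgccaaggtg
Rps3a, chr2:173827018-173827092, minus strand: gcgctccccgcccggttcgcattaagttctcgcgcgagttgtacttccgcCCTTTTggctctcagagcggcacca
Rpl12, chr3:36661890-36661964, plus strand: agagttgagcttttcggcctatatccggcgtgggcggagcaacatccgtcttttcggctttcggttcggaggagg
Rpl3, chr7:113507966-113508040, minus strand: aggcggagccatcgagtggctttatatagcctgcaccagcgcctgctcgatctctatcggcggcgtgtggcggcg
Rpl22l1, chr2:113683146-113683220, plus strand: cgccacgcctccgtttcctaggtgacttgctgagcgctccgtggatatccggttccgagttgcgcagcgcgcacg
Rpl3l, chr10:14258396-14258470, plus strand: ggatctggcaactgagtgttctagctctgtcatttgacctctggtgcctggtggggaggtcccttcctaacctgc

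The run was 12 bases long in Rpl37a and Rpl10, 9 in Rps18 and Rplp1 and 6 in Rps3a. RefSeq held a start region for 64 of the 79 members, and 23 of the 64 (35.9%) began with such a run, against 2.63% of 27457 genes. The motif CTTTCC lay within 15 bases of the start, on the transcribed strand, in 23.4% of the members' regions and 1.3% of all. In Rplp1, shown above, this motif lies within the pyrimidine run, and how often it does so in other members was not counted. CCGGAAG, a core site of the ETS family of transcription factors, lay on either strand of the 300-base window (250 bases before the start and 50 from it) in 29.7% of the members' regions and 9.22% of all. TATAAA lay on either strand in 9.38% of the members' regions and 14.3% of all. These are matches of letters, counted with no test.

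One array, old_AL 1, stood far from the rest. The processed signal at its 75th percentile was 7662 intensity units against 2634 to 3110 on the others, and it carried 4589 spots flagged as uneven or outlying against 269 to 707. The median signal of the 236 member spots was 299557 there and 57595 to 66066 on the other arrays. Values below are therefore from the fit of the other 11 arrays, with n = 3 for old_AL and n = 4 for each other group, and the fit of all 12 arrays is described after them. Of the 3 old_AL arrays kept, old_AL 4 also stood apart. Its upper quartile of signal was 34.5 times its lower quartile, a multiple that ran from 60.5 to 72.8 on the other 10, and its median correlation with other arrays was 0.971 against 0.985 to 0.994. A scaled log2 signal is log2 of the processed intensity minus log2 of that array's 75th percentile, so a value of 0 is the level of that percentile. Differences are tested with limma and adjusted by Benjamini-Hochberg over all genes tested, and a gene is called at an adjusted p under 0.05. A further limit is the layout: the young_AL arrays had a separate slide, so that slide and age cannot be told apart, and the old_AL and old_CR arrays filled different rows of the same slide, so diet and row cannot be told apart.

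Most ribosomal protein genes were bright. Of the 139 probes, 134 were well above background on all 11 arrays, and 0 spots of these probes were saturated. By the filter that a probe be well above background on at least 4 arrays, 78 members were tested, 48 of the large subunit and 30 of the small. The remaining member, Rpl27l2, was well above background on 2 young_AL arrays, 0 old_AL arrays and 1 old_CR array. A gene was read from its brightest probe. Of the 46 members with several probes, 42 had probes within 0.2 of each other on the log2 scale in both the age and the diet difference. That limit is wider than the members' median differences of 0.13 and -0.12, so probes that differ by as much as these medians pass it. The probes of Rps16 gave 0.0025 and 0.15 with age, and those of Rpsa 0.02 and 0.19.

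In old rats fed ad libitum, ribosomal protein genes stood slightly but nearly uniformly higher than in young rats on this scale. The difference was above 0 for 77 of 78 members, with a median of 0.13 (1.1-fold), and for all 30 small subunit members. Over all genes tested it was above 0 for 12351 of 20849. With limma, 12 members rose (15.4%; 7 of the large subunit and 5 of the small) and 0 fell. Over all 20849 genes tested, 2% rose and 1.25% fell. At an unadjusted p under 0.05, 56 members (71.8%) differed, against 23.1% of all genes tested. The median difference was 0.13 for the large subunit and 0.15 for the small, against 0.03 for all genes tested and 0.015 for the 2013 brightest genes that are no members.

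The arrays of the groups were separate for most members. All 3 old_AL arrays lay above all 4 young_AL arrays for 59 of 78 members (75.6%), 33 large and 26 small, against 11.9% of all genes tested. Taken per array, the median member of the large subunit differed from the young_AL mean by -0.038, 0.024, -0.002 and 0.004 in young_AL, by 0.14, 0.10 and 0.12 in old_AL 2, 3 and 4, and by 0.030, -0.018, 0.054 and -0.026 in old_CR. For the small subunit the values were -0.031, 0.014, 0.007 and 0.024 in young_AL, 0.18, 0.12 and 0.15 in old_AL, and 0.055, 0.0003, 0.057 and -0.028 in old_CR. The old_AL arrays were the highest for both subunits, and the young_AL and old_CR arrays overlapped. The array of old_AL 1 stood at 0.51 for the large subunit and 0.75 for the small, while its median over all genes stood at -0.57.

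**Figure D1:**
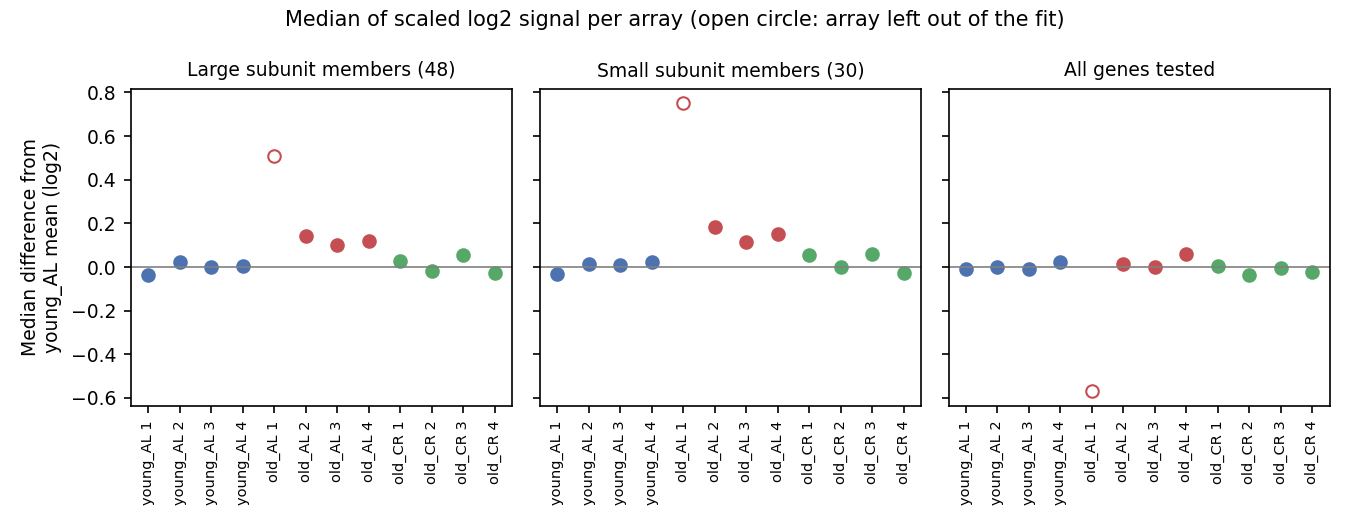
Median difference from the young_AL mean in scaled log2 signal for each of the 12 arrays (x axis), over the 48 large subunit members, the 30 small subunit members and all genes tested; the open circle is old_AL 1, which is not in the fit. The 3 filled old_AL arrays sit at 0.10 to 0.14 for the large subunit and 0.12 to 0.18 for the small, above all young_AL and old_CR arrays.

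How far the members stood above 0 depended on how the arrays were put on a common scale. The median member difference with age was 0.068 after quantile normalization, 0.034 after centring each array on its median and 0.010 with no scaling between arrays, and 65, 59 and 46 of 78 members were then above 0. The median of all genes was -0.051, -0.067 and -0.090 in the same settings, a shift of more than 0.1 from the 75th-percentile scale in the last 2 of these. The members' median minus that of all genes was 0.12 after quantile normalization, 0.057 with normexp background correction and 0.10 on the 75th-percentile scale. With no filter on dim probes it was 0.048, the lowest of these settings, with the median of all 26903 genes at 0.086. It is the same 0.10 as on the 75th-percentile scale after median centring and with no scaling, since these shift all genes of an array by a constant. Members called higher numbered 3 after quantile normalization, 0 after median centring and 0 with no scaling, and Rpl22l1 alone was called lower, after median centring (difference -0.19, limma adjusted p = 0.047). Over all 20849 genes tested, 244 rose and 823 fell after quantile normalization. These were 390 and 2578 after median centring and 45 and 114 with no scaling. The share of higher calls among all called genes was 61.5% on the 75th-percentile scale, 22.9% after quantile normalization, 13.1% after median centring, 28.3% with no scaling and 86.3% with normexp. Before scaling, the median member spot was at 57595 to 65464 in young_AL and 61114 to 65906 in old_AL 2 to 4, and these ranges overlap, while the 75th percentile was at 2735 to 3079 and 2634 to 2751.

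**Figure D2:**
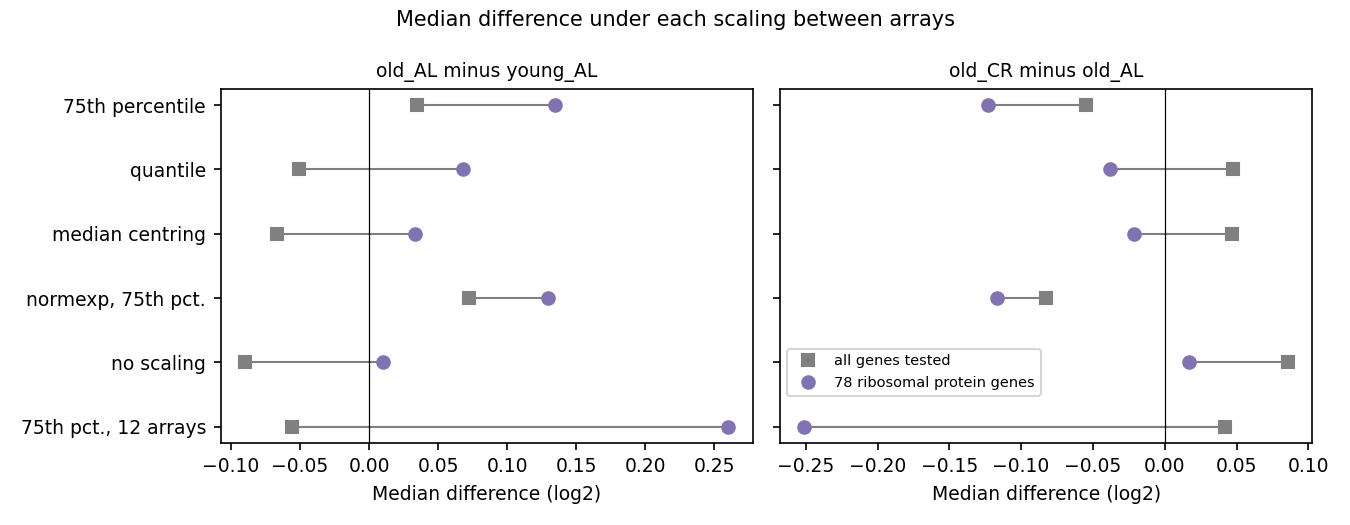
Median difference on the log2 scale (x axis) of the 78 ribosomal protein genes (circles) and of all genes tested (squares) for old_AL minus young_AL and old_CR minus old_AL, under 5 ways of scaling 11 arrays and for all 12 arrays. The circles stay to the right of the squares with age and to the left with caloric restriction, while their place against 0 moves: with no scaling they stand at 0.010 and 0.017.

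Among the small subunit members that rose with age, Rps3a, a protein near the binding site of initiation factors, had scaled log2 signals of 5.07, 5.11, 5.04 and 5.11 in young_AL, 5.30, 5.25 and 5.29 in old_AL and 5.16, 5.12, 5.14 and 5.08 in old_CR. Its 3 old_AL arrays lay above all others. The difference with age was 0.20 ± 0.034 (SE; limma adjusted p = 0.026), and 0.39 ± 0.16 (adjusted p = 0.58) on all 12 arrays, where old_AL 1 read 6.05. Before scaling, its intensities were 91899, 105419, 94021 and 106089 in young_AL and 105505, 100259 and 107722 in old_AL, and these overlap. Rps12, a protein of the beak of the small subunit, had 6.21, 6.22, 6.20 and 6.23 in young_AL, 6.46, 6.40 and 6.41 in old_AL and 6.27, 6.26, 6.32 and 6.20 in old_CR. It rose by 0.21 ± 0.035 (limma adjusted p = 0.026), with no overlap between old_AL and either other group, whereas old_AL 1 at 6.25 lay among the old_CR arrays. A dimmer Rps12 probe gave a difference with age of 0.12.

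Rps14, a platform protein, had 4.47, 4.51, 4.48 and 4.47 in young_AL, 4.81, 4.64 and 4.76 in old_AL and 4.55, 4.53, 4.63 and 4.51 in old_CR. Rps18, a head protein at times used as a reference gene, had 4.80, 4.80, 4.77 and 4.82 in young_AL, 5.05, 4.997 and 4.96 in old_AL and 4.92, 4.84, 4.85 and 4.80 in old_CR. Both were higher in every old_AL array than in every young_AL array, by 0.26 ± 0.046 for Rps14 (limma adjusted p = 0.029) and 0.20 ± 0.038 for Rps18 (limma adjusted p = 0.032). Rps28, which lies near the exit of the messenger RNA channel, had 5.58, 5.66, 5.66 and 5.66 in young_AL, 6.00, 5.84 and 5.89 in old_AL and 5.88, 5.69, 5.79 and 5.66 in old_CR. It rose by 0.27 ± 0.061 with age (limma adjusted p = 0.049), and old_CR overlapped both other groups.

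The large subunit member with the smallest p was Rpl37a, a zinc-binding protein whose start carries a run of 12 pyrimidines (above). It had 6.09, 6.15, 6.15 and 6.08 in young_AL, 6.35, 6.29 and 6.32 in old_AL and 6.15, 6.09, 6.15 and 6.07 in old_CR. The old_AL arrays stood above both other groups, which overlapped each other. The difference with age was 0.20 ± 0.036 (limma adjusted p = 0.029), or 1.15-fold. Rpl3, which reaches towards the peptidyl transferase centre, had 4.99, 5.07, 5.01 and 5.07 in young_AL, 5.26, 5.21 and 5.20 in old_AL and 5.14, 5.09, 5.19 and 5.13 in old_CR. It rose by 0.19 ± 0.037 with age (limma adjusted p = 0.034), and here the old_CR arrays lay between the other groups with no overlap.

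Rpl10, which joins the large subunit late and is needed for the subunits to come together, had 5.78, 5.80, 5.77 and 5.84 in young_AL, 6.01, 5.96 and 5.94 in old_AL and 5.83, 5.86, 5.92 and 5.80 in old_CR. It rose by 0.17 ± 0.037 with age (limma adjusted p = 0.046). With every probe tested on its own, a dimmer Rpl10 probe gave 0.13 ± 0.061 (limma adjusted p = 0.23). On that probe old_AL 3, at 4.74, lay among the young_AL arrays. Rpl37l1, a locus named as a copy of Rpl37, had 3.34, 3.37, 3.34 and 3.43 in young_AL, 3.58, 3.52 and 3.63 in old_AL and 3.45, 3.35, 3.49 and 3.395 in old_CR, and its spot on old_AL 1 was flagged. It rose by 0.21 ± 0.045 (limma adjusted p = 0.048). Tested on their own, its dimmer probes gave 0.096 ± 0.065 (limma adjusted p = 0.40) and 0.14 ± 0.052 (limma adjusted p = 0.15). Ribosomal protein genes have many near-identical copies in rodent genomes, and a probe may take up RNA of its copies, so the value of Rpl37l1 is uncertain as to locus. Rpl27a also rose, by 0.19 ± 0.042 (limma adjusted p = 0.049), and is named outside the rule, after its values were seen.

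The stalk of the large subunit, which recruits the elongation factors, is built of Rplp0, Rplp1 and Rplp2 with Rpl12 at its base. Rpl12 had 4.18, 4.20, 4.18 and 4.17 in young_AL, 4.32, 4.35 and 4.29 in old_AL and 4.15, 4.17, 4.19 and 4.13 in old_CR. The old_AL arrays were the highest and the other groups overlapped. Its difference with age was 0.14 ± 0.030 (limma adjusted p = 0.049), and on old_AL 1 it read 4.12, below every young_AL array. Rplp1 had 5.14, 5.24, 5.15 and 5.18 in young_AL, 5.44, 5.37 and 5.34 in old_AL and 5.24, 5.22, 5.30 and 5.14 in old_CR, and rose by 0.21 ± 0.047 with age (limma adjusted p = 0.049). Rplp0 had 6.61, 6.56, 6.57 and 6.54 in young_AL, 6.67, 6.65 and 6.68 in old_AL and 6.56, 6.53, 6.58 and 6.47 in old_CR, a difference with age of 0.10 ± 0.035 (limma adjusted p = 0.15). Rplp2 had 6.14, 6.19, 6.21 and 6.13 in young_AL, 6.26, 6.15 and 6.16 in old_AL and 6.20, 6.13, 6.16 and 6.11 in old_CR. Its groups overlapped, and its difference of 0.02 ± 0.041 (limma adjusted p = 0.77) was among the smallest of the members.

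**Figure D3:**
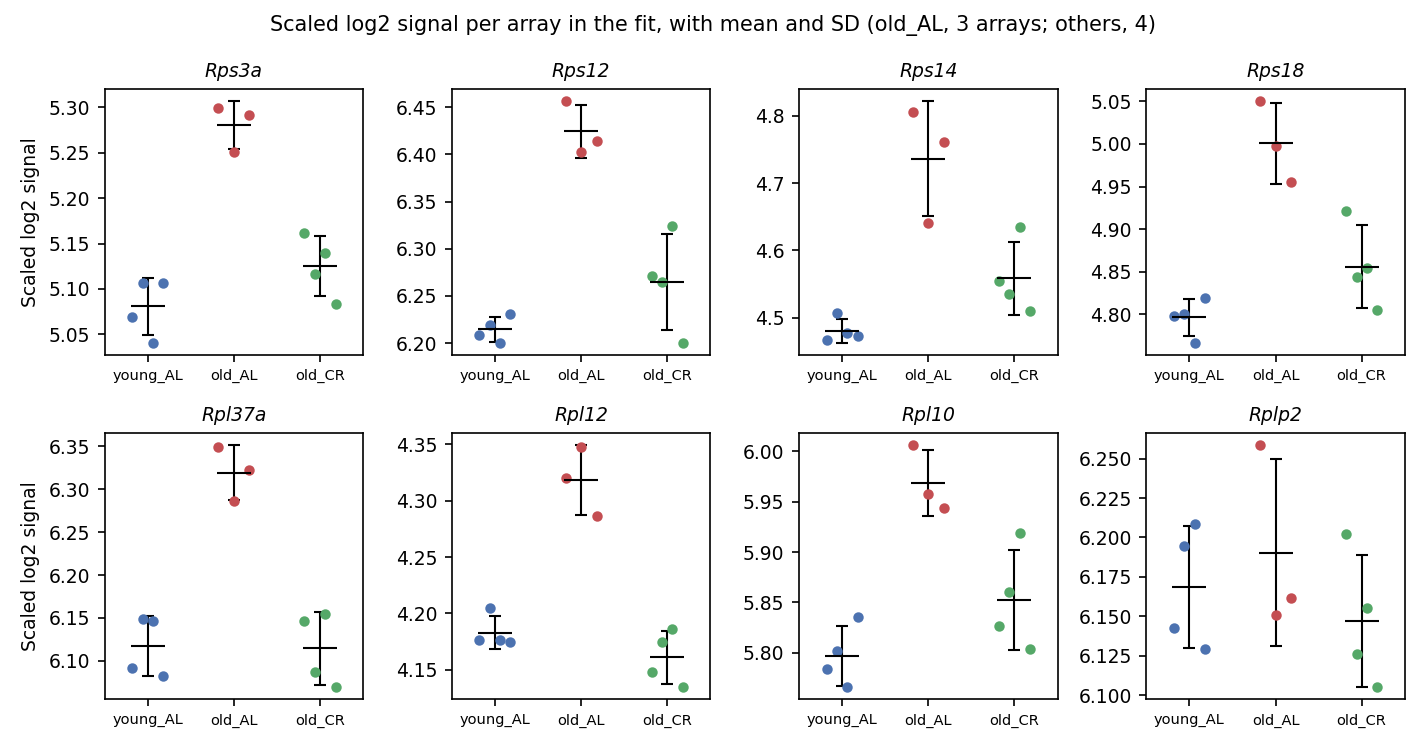
Scaled log2 signal (y axis, a scale of its own in each panel) of 8 ribosomal protein genes on each of the 11 arrays in the fit, by group, with the mean and SD over 3 old_AL and 4 other arrays. For Rps3a, Rps12, Rpl37a and Rpl12 the old_AL points lie above both other groups, whereas for Rplp2 the groups overlap.

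Further members were chosen for their role or had the smallest differences. Rps6, the substrate of S6 kinase and a common readout of mTORC1 activity at the protein level, had 4.39, 4.39, 4.37 and 4.39 in young_AL, 4.57, 4.51 and 4.53 in old_AL and 4.42, 4.40, 4.50 and 4.35 in old_CR. Its old_AL arrays lay above both other groups, yet the difference of 0.15 ± 0.039 did not pass (limma adjusted p = 0.066). Rpsa, which is also known as a laminin receptor precursor, had 3.60, 3.57, 3.77 and 3.75 in young_AL, 3.73, 3.74 and 3.61 in old_AL and 3.57, 3.55, 3.76 and 3.62 in old_CR, with all 3 groups overlapping. Its difference with age was 0.02 by this probe and 0.19 by a dimmer one. Rpl15 had the smallest difference with age, 0.01 ± 0.042 (limma adjusted p = 0.89), from -1.43, -1.37, -1.38 and -1.29 in young_AL and -1.33, -1.40 and -1.35 in old_AL.

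Paralogs are given beside their parent genes. Rpl22 had 4.22, 4.25, 4.29 and 4.29 in young_AL, 4.43, 4.42 and 4.45 in old_AL and 4.24, 4.24, 4.33 and 4.19 in old_CR, a difference with age of 0.17 ± 0.039 (limma adjusted p = 0.051). Rpl22l1, whose protein can take the place of that of Rpl22 in the ribosome, was the only member tested below 0 with age. It had 3.29, 3.47, 3.38 and 3.43 in young_AL, 3.30, 3.22 and 3.38 in old_AL and 3.38, 3.36, 3.402 and 3.32 in old_CR, so that all groups overlapped (difference -0.09 ± 0.053, limma adjusted p = 0.33). The difference between the paralogs in how they moved was not tested. A second, dimmer Rpl22l1 probe gave a difference of 1.05 ± 0.91, with young_AL 4 at -5.21 and the other 10 arrays near -1.

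In 3 further members a probe departed from the brightest by more than 0.2 in the age or the diet difference. The second probe of Rps14 gave a difference with age of 3.54 ± 2.9, with young_AL 4 at -9.41 and the other arrays near 4.2. A dim Rpl36a probe gave 0.67 ± 0.34 with age and -1.07 ± 0.34 with caloric restriction, where the brightest gave 0.19 and -0.12. A dim Rpl28 probe gave 0.23 ± 0.087 with caloric restriction, where the brightest gave -0.09.

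Rpl3l, the paralog of Rpl3 that is known from heart and skeletal muscle, lay near background, at -7.39, -6.35, -6.90 and -6.90 in young_AL and -7.07, -7.01 and -5.89 in old_AL, and was well above background on 4, 2 and 4 arrays of young_AL, old_AL and old_CR. Rpl39 had 3.95, 4.02, 4.02 and 4.05 in young_AL and 4.22, 4.08 and 4.13 in old_AL, a difference of 0.13 ± 0.047 (limma adjusted p = 0.14). The locus Rpl39l1 had the largest difference of all members, 2.29 ± 0.94 (limma adjusted p = 0.19), but was well above background on only 2, 3 and 1 arrays of the 3 groups. Rps12l4 was well above background on 2 young_AL, 0 old_AL and 2 old_CR arrays, and its difference has no meaning as a fold. Among parents and relatives that were bright, Rpl7 differed by 0.13 ± 0.041, Rps27 by 0.27 ± 0.065 and the X-linked Rps4x by 0.09 ± 0.047, and none of the 3 was called. Without Rpl39l1, Rpl3l and Rps12l4, the differences of the remaining 75 members, of which Rpl15 was the dimmest, ran from -0.09 to 0.27.

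**Figure D4:**
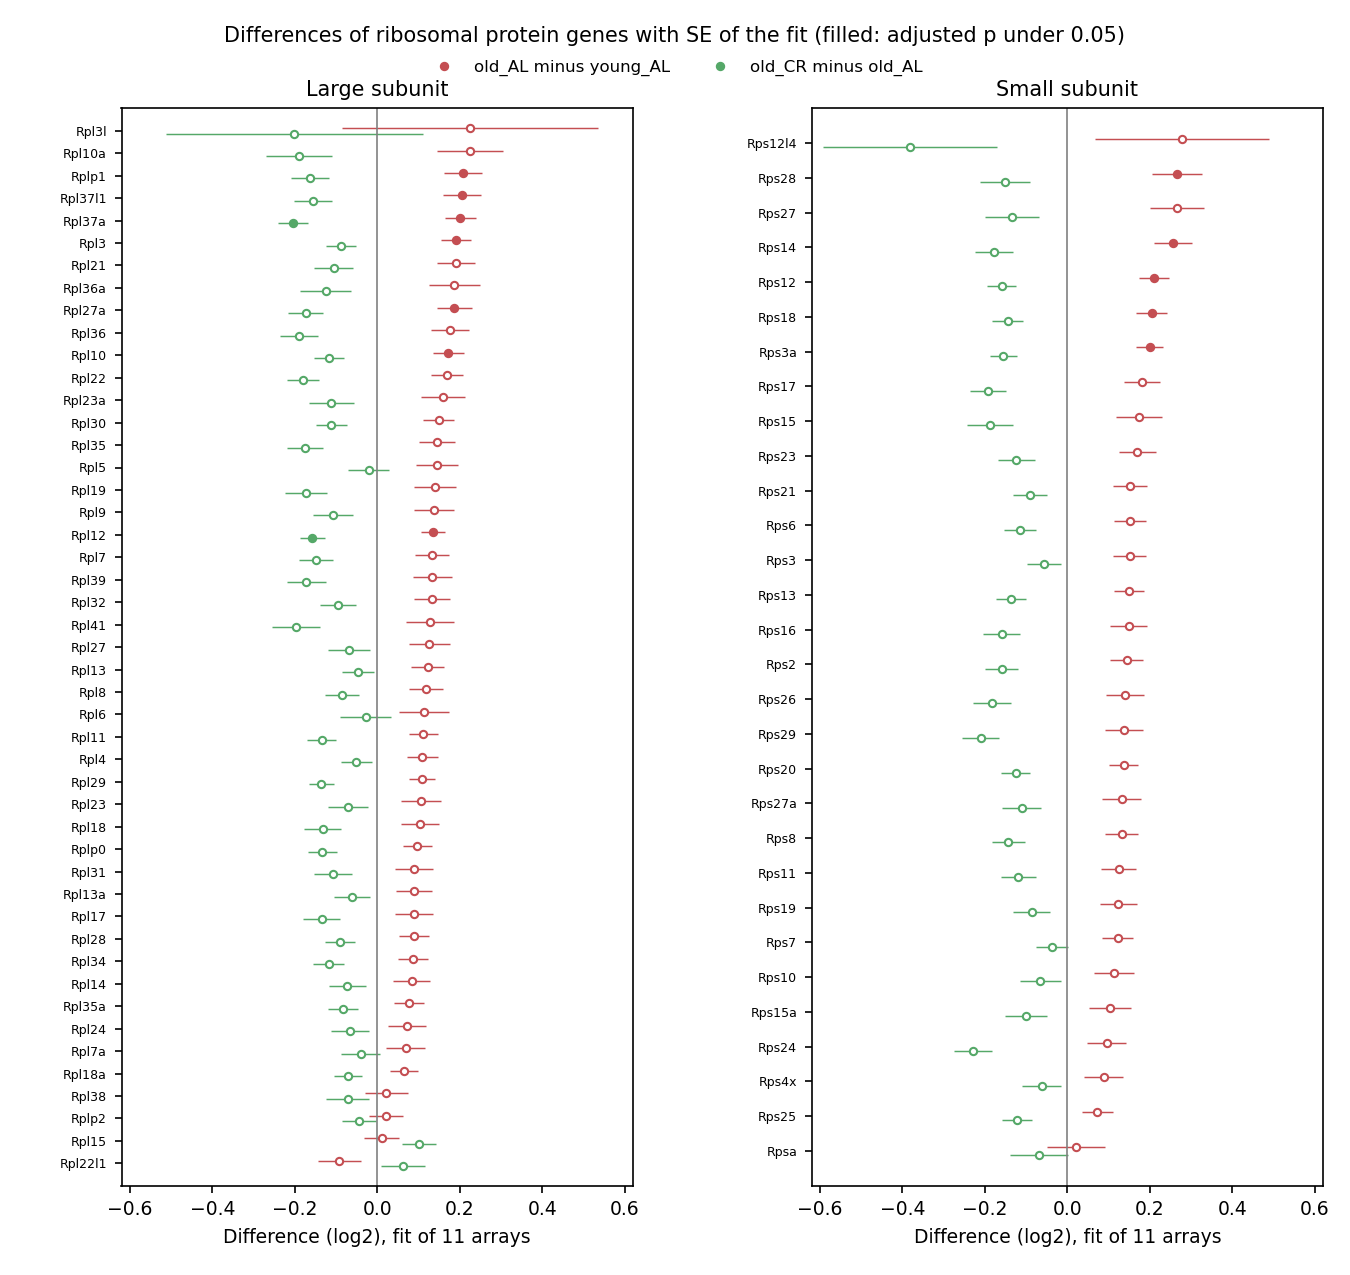
Log2 difference with its standard error (x axis) of each large and small subunit member (rows, in the order of the difference with age), for old_AL minus young_AL (red) and old_CR minus old_AL (green); filled points have an adjusted p under 0.05, and Rpl39l1 lies outside the axis at 2.29 and -2.46. Every member drawn but Rpl22l1 is to the right of 0 with age, and every one but Rpl22l1 and Rpl15 is to the left with caloric restriction; both comparisons share the old_AL arrays.

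In old rats on caloric restriction, most ribosomal protein genes had slightly lower values than in old rats fed ad libitum on the 75th-percentile scale, and 2 of 78 passed the test. The difference was below 0 for 76 of 78 members, with a median of -0.12 (0.918-fold), -0.11 for the large subunit and -0.14 for the small, against -0.05 for all genes tested and -0.017 for the brightest genes that are no members. Over all genes tested it was below 0 for 13105 of 20849. With limma, 2 members fell, both of the large subunit (2.56% of 78), and 0 rose. Over all genes tested, 0.796% fell and 0.269% rose. At an unadjusted p under 0.05, 47 members (60.3%) differed, against 26.4% of all genes tested. All 3 old_AL arrays lay above all 4 old_CR arrays for 43 members (55.1%), 26 large and 17 small, against 15.3% of all genes tested.

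The members that fell were Rpl37a, by 0.20 ± 0.036 on the log2 scale (limma adjusted p = 0.045; 0.868-fold), and Rpl12, by 0.16 ± 0.030 (limma adjusted p = 0.049; 0.897-fold), with the array values given above. Every old_CR array of both genes lay below every old_AL array. The small subunit member with the smallest p was Rps24, a protein mutated in some inherited anaemias of failing ribosome production. It had 4.02, 4.10, 4.10 and 4.07 in young_AL, 4.17, 4.19 and 4.15 in old_AL and 3.89, 3.91, 4.06 and 3.90 in old_CR. Its difference was -0.23 ± 0.047 and did not pass (limma adjusted p = 0.052). Rpl22 differed by -0.18 ± 0.039 and Rps3a by -0.16 ± 0.034, both at an adjusted p of 0.058 by limma, and were not called.

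Rpl15 and Rpl22l1 were the members above 0 in this comparison. Rpl15, a protein of the large subunit core, had -1.32, -1.26, -1.24 and -1.22 in old_CR, each above every old_AL array, and its difference was 0.10 ± 0.042 (limma adjusted p = 0.16). Its probe was weak for a member, at 999 to 1334 intensity units on the 11 arrays, where the median member spot was at 57595 to 66066. Rpl22l1 differed by 0.06 ± 0.053 (limma adjusted p = 0.46). The smallest difference was that of Rpl5, which binds the smallest RNA of the large subunit with Rpl11. Rpl5 had 3.70, 3.62 and 3.53 in old_AL and 3.58, 3.60, 3.64 and 3.57 in old_CR, and its difference was -0.02 ± 0.050 (limma adjusted p = 0.82).

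The sign of this comparison also moved with the scaling. The members' median was -0.038 after quantile normalization, -0.022 after median centring and 0.017 with no scaling, where 22, 28 and 49 members were above 0, and the median of all genes was 0.047, 0.047 and 0.086. Relative to all genes, the members' median was -0.069 on the 75th-percentile scale, -0.086 after quantile normalization and -0.035 with normexp. With no filter on dim probes, where 26903 genes were tested, it was -0.0015, and the large subunit stood at 0.010 and the small at -0.014 relative to all genes, whose median was then -0.12. In that setting the members and all genes were level. Members called were 0 after quantile normalization and, after median centring, Rpl15 alone, which was then higher (0.20, limma adjusted p = 0.042). Over all 20849 genes tested, 273 rose and 120 fell after quantile normalization, and 1826 and 281 after median centring. The share of higher calls among all called genes was 25.2% on the 75th-percentile scale, 69.5% after quantile normalization, 86.7% after median centring and 10.69% with normexp.

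Between old rats on caloric restriction and young rats, the members were close to level. The median difference was 0.009 for the large subunit and 0.016 for the small, 44 of 78 members were above 0, and 0 were called by limma, against 2.41% of all genes tested. Over all 20849 genes tested, 9242 were above 0. At an unadjusted p under 0.05, 6 members (7.69%) differed, against 18.3% of all genes tested. In 4 members (5.13%) every old_CR array lay above every young_AL array, against 5.59% of all genes tested, and in 0 members below, against 10.2%. The smallest p belonged to Rps24, at -0.13 ± 0.043 (limma adjusted p = 0.14), in which old_CR lay below the old_AL arrays, and to Rpl3, at 0.10 ± 0.034 (limma adjusted p = 0.14). Rpl15 was at 0.11 ± 0.039 (limma adjusted p = 0.16). Rps3, at the entry of the messenger RNA channel, had 5.32, 5.31, 5.33 and 5.35 in young_AL and 5.48, 5.34, 5.47 and 5.39 in old_CR, a difference of 0.09 ± 0.038 (limma adjusted p = 0.22). The smallest difference was that of Rpl28, with 4.19, 4.20, 4.21 and 4.22 in young_AL and 4.25, 4.17, 4.23 and 4.15 in old_CR. Over all genes the share of higher calls was 32.6%, and 43.4% with no scaling. The 3 comparisons share their groups, and for 39 members (50%) the old_AL arrays lay above both other groups, against 6.2% of all genes tested.

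With old_AL 1 included, none of these calls held. On all 12 arrays limma called 0 members in each comparison, with 0.0191% of 20942 genes called for old_AL against young_AL, 0.00478% for old_CR against old_AL and 0.0191% for old_CR against young_AL. At an unadjusted p under 0.05, 22, 13 and 0 of the 78 members differed, against 6.71%, 5.96% and 2.72% of all genes. The 12 members called with age on 11 arrays had differences of 0.086 (Rpl12) to 0.44 (Rps28) on 12 arrays, at adjusted p of 0.51 to 0.58 by limma. The difference was larger than on 11 arrays for 8 of these, smaller for Rpl10 (0.14), Rpl12 and Rps12 (0.17), and the same for Rpl37l1. With caloric restriction, Rpl37a was at -0.25 ± 0.079 and Rpl12 at -0.11 ± 0.077 on 12 arrays, both at a limma adjusted p of 0.64. The medians over the members were larger, not smaller: with age the median was 0.24 for the large subunit and 0.32 for the small, and with caloric restriction -0.23 and -0.28, with 71 of 78 members above 0 and 71 below 0. Of all 20942 genes, 9224 were above 0 with age and 9493 below 0 with caloric restriction. The typical residual SD of a gene was 0.36 with this array and 0.10 without it. On all 12 arrays the brightest genes that are no members also stood higher in old_AL than in young_AL, with a median of 0.19, while the median of all genes was -0.056.

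The calls also rested on single arrays among the 11. Leaving out young_AL 2, young_AL 3 or old_AL 2 left 0 members called with age, and leaving out any other array left 2 to 9. The calls over all genes moved too, from 416 higher and 260 lower with age on 11 arrays. They were 43 and 27 without young_AL 2, 60 and 29 without young_AL 3 and 286 and 116 without old_AL 2. In the other fits they were 157 to 258 higher and 90 to 179 lower. The 2 calls with caloric restriction stayed when old_AL 2 was left out and were lost when any other array was. Over all genes, 143 were called higher and 781 lower with caloric restriction without old_AL 2. Without any other array these were 1 to 39 and 0 to 193. Without old_AL 4, 2 members were called with age, the median of all genes with age was 0.008, and the genes called with caloric restriction fell from 56 higher and 166 lower to 1 and 1. The members' median difference with age stayed between 0.12 and 0.15 in all these fits.

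Genes that work with the ribosomal proteins were read from lists. Fau (a fusion of a small subunit protein) and Rack1 (a scaffold on the small subunit) carry symbols that the rule does not reach. Their differences with age were 0.09 ± 0.045 and 0.12 ± 0.044, and 0 of 2 were called in any comparison. Of 6 other messenger RNAs known to begin with a pyrimidine tract, 0 were called, with a median of 0.06 with age and -0.05 with caloric restriction. Their differences ran from -0.03 to 0.15 with age, with 5 above 0. With caloric restriction they ran from -0.22 to 0.07, with 2 above 0. Whether they differ from the members was not tested. Members were also split by a run that begins exactly at the RefSeq start. The 23 with a run had a median of 0.14 with age, with 6 called. The 40 tested without a run had 0.13, with 5 called. Rpl12 counts as without a run, though a C and further pyrimidines begin directly before its RefSeq start (above). The split thus depends on where RefSeq places the start, and cannot tell whether members with a pyrimidine tract differ from the others.

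No call was made among translation factors or genes of ribosome production, which is near the share over all genes for lists of this size. Over all genes tested, 2% rose and 1.25% fell with age. With caloric restriction 0.796% fell and 0.269% rose, and 2.41% were called between old_CR and young_AL. Of 31 initiation and elongation factors tested, 0 were called in any of the 3 comparisons, and their median was 0.02 with age and 0.01 with caloric restriction. Of 44 ribosome biogenesis genes, 0 were called, with medians of 0.0005 and 0.017. Of 66 mitochondrial ribosomal proteins, which build the separate ribosome inside mitochondria, 0 were called, with medians of -0.04 and 0.03, opposite in sign to the cytosolic members in both comparisons. Of 24 genes of mTORC1 and S6 kinase signalling, 0 were called with age or with caloric restriction in old rats, and Rragd, a GTPase that brings mTORC1 to the lysosome, was higher in old_CR than in young_AL by 0.21 ± 0.042 (limma adjusted p = 0.037). On each list the difference from the members was not tested, and the sign of a list median near 0 is not settled, since median centring moved the median of all genes with age from 0.03 to -0.067.

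**Figure D5:**
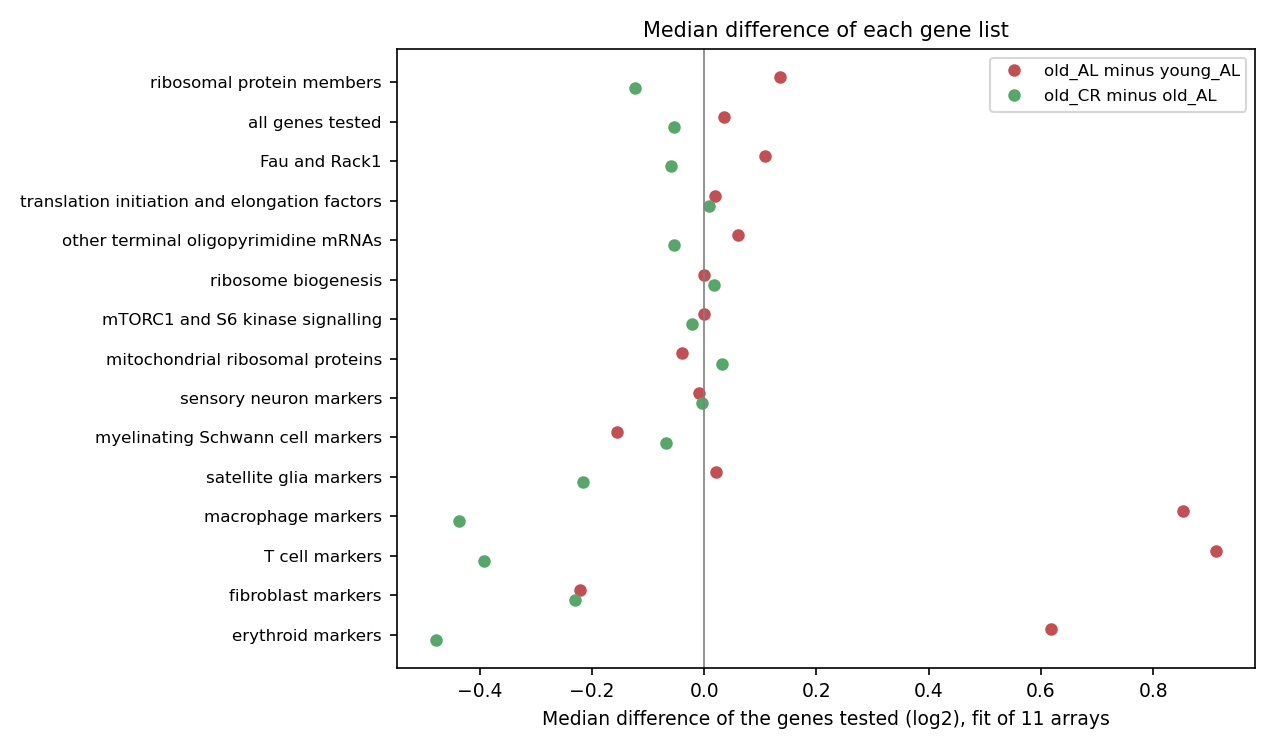
Median difference on the log2 scale (x axis) of the tested genes of each list (rows) for old_AL minus young_AL (red) and old_CR minus old_AL (green), in the fit of 11 arrays. The ribosomal protein members stand at 0.13 and -0.12, translation factors at 0.02 and 0.01, and macrophage markers at 0.85 and -0.44.

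A few markers of immune cells also rose with age. Of 12 macrophage markers, 3 rose with age (Cd163, Lyve1 and Mrc1), 12 had a difference above 0, and the median was 0.85 with age and -0.44 with caloric restriction. Their summed signal, as a multiple of each array's 75th percentile, was 7.71 to 10.73 in young_AL, 11.7 to 16.8 in old_AL and 9.60 to 12.8 in old_CR. Of 5 T cell markers 1 rose, Cd8a, and the sums were 0.304 to 0.395, 0.443 to 0.589 and 0.349 to 0.563. The sums of 4 erythroid markers were 166 to 236, 208 to 274 and 178 to 188. On old_AL 1 the sums were 58.0 for macrophages, 0.207 for T cells and 204 for erythroid cells. The median marker there stood at -0.12 for macrophages and -0.29 for T cells relative to the young_AL mean. For macrophages the sum and the median thus went opposite ways on that array. The median ribosomal protein gene stood at 0.54 on it. All markers of macrophages and red cells were well above background on all 11 arrays, as were 4 of the 5 T cell markers. Their part in the members' differences was not tested.

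Among the cells of the ganglion itself, 3 of 13 sensory neuron markers fell with age, Nefl by 0.31 ± 0.041 (limma adjusted p = 0.013), Nefh by 0.25 ± 0.050 (limma adjusted p = 0.036) and Isl1 by 0.19 ± 0.041 (limma adjusted p = 0.048). Isl1 was also higher in old_CR than in old_AL, by 0.31 ± 0.041 (limma adjusted p = 0.029), the 1 call among these 13 in that comparison. The summed neuron markers were 603 to 637 in young_AL, 597 to 635 in old_AL and 572 to 606 in old_CR. Of 7 Schwann cell markers 0 were called with age (median -0.16), with sums of 147 to 166, 125 to 151 and 125 to 143. Of 6 satellite glia markers 0 were called with age, and 1 fell with caloric restriction in old rats, with sums of 90.3 to 98.6, 95.3 to 102 and 85.1 to 93.5. Fibroblast markers had 0 calls in both comparisons with old_AL and sums of 39.4 to 49.5, 32.2 to 43.8 and 26.9 to 38.2. The part of these cell types in the members' differences was not tested.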

How the data were processed

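The authors deposited Agilent one-colour arrays as spot intensities, which Agilent Feature Extraction 10.7 made, per the submitters' processing notes. The processed intensity is background-subtracted, per the file headers, and the deposited table of the series holds the same intensity values (largest difference 0). Log2 values were computed here from the deposited intensity, minus each array's 75th percentile. Control spots were left out, outlier-flagged spots set to missing, spots of a probe averaged, and the brightest probe represented a gene. A probe was well above background where at least 0.5 of its spots were. Probes were named through RefSeq accessions, and 17998 of 30367 had a symbol. The fit was limma 3.58.1 in R 4.3.3 (lmFit, eBayes, a mean per group), on 11 arrays. The code was tested on simulated data. The members, the gene lists and the omission of old_AL 1 were chosen with earlier results of these data known. 1 gene of these lists is not reported here.

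Named members are up to 5 called per comparison and subunit with the smallest p (where none was called, the 2 with the smallest p), paralogs with parents, stalk members with Rpsa, Rps6 and Rpl10, members with disagreeing probes, and the smallest difference per comparison. The alternatives tried are given below. The labels describe 4 rats per group, and the number of arrays limits the precision. Correlations of deviations ran from -0.088 to 0.086 over 10 same-numbered pairs of arrays and from -0.13 to 0.10 over 30 other pairs. They gave no sign that replicate numbers pair the arrays, but with so few arrays per group they cannot exclude it.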

Additional observations from a re-analysis of the deposited data

Results flagged for a closer look

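Values of named members and of the subunit medians were screened for an array whose gap to its nearest neighbour took up most of the range of its group of 4 arrays (Dixon's test at the 95% level). The same screen was run on the additional probes of members whose probes disagreed. Of 74 groups screened, 8 passed, and chance flags about 1 in 20. Groups of 3 arrays, as old_AL in the fit, were not screened.

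The array old_AL 1 was far above the other old_AL arrays in the median of the large subunit (0.51 against 0.10 to 0.14) and of the small (0.75 against 0.12 to 0.18). In young_AL, Rpl12 was highest on young_AL 2, at 4.20 against 4.17 to 4.18, and Rps28 lowest on young_AL 1, at 5.58 against 5.66. In old_CR, Rps24 was highest on old_CR 3, at 4.06 against 3.89 to 3.91. Single spots or probes also stood far off. The second Rps14 probe read -9.41 on young_AL 4 against 4.15 to 4.23 on the other young_AL arrays. The second Rpl22l1 probe read -5.21 on young_AL 4 against -1.06 to -0.89. A dim Rpl36a probe read -5.94 on young_AL 3 against -6.25 to -6.20. The brightest probes of Rps14 and Rpl22l1 gave ordinary values on young_AL 4.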

How the results depend on the processing

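The counts of called members were 12 for old_AL against young_AL, 2 for old_CR against old_AL and 0 for old_CR against young_AL. With old_AL 1 included they were 0, 0 and 0, as they were with the compared groups alone and with no scaling between arrays (a setting chosen after seeing the data). Over all genes, the compared groups alone called 19 higher and 6 lower with age, and 0 and 0 with caloric restriction. In the third comparison these were 241 and 638. With no scaling they were 45 and 114, 2 and 0, and 33 and 43. Members called when each other array was left out numbered 0 to 9, 0 to 2 and 0. Quantile normalization gave 3 and 0, and median centring 1 and 1 (each in the opposite direction). Normexp gave 29 and 28, and no filter on dim probes 6 and 0. An intensity trend gave 26 and 21, and the mean of a gene's probes 1 in the second comparison. Calls over all genes tested moved as well. With age, 416 rose and 260 fell in the main fit, 3313 and 525 with normexp, 395 and 147 with no filter and 645 and 444 with the trend. With caloric restriction, 56 rose and 166 fell in the main fit, 506 and 4226 with normexp, 16 and 112 with no filter and 239 and 626 with the trend. Array weights gave 13 in the second and 1 in the third, Rps24. Over all genes, array weights called 331 higher and 878 lower in the second, and 567 and 1208 in the third. Of the 29 members called with normexp, 12 were among the 12, as were 12 of the 26 with an intensity trend. Over all genes the replicate block called 16 higher and 4 lower with age and 0 and 1 with caloric restriction. It called 8 and 9 in the third. Among members it gave 0, 0 and 0, and whether shared numbers pair the arrays is not settled. Counts were within 1.5 times the main ones where a probe had to pass on every array, saturated spots missing, every probe on its own and the series table. No called difference of a named member changed sign under these alternatives. The cause of these changes was not tested.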
